A study of Homo sapiens with 8 samples.

Results

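The interferon regulatory factors are transcription factors that share a DNA-binding domain able to read the GAAA repeats of interferon-stimulated response elements. The 8 members described here, IRF1, IRF2, IRF3, IRF4, IRF5, IRF7, IRF8 and IRF9, were taken by gene symbol from a table of 35370 genes. The cells were MOLM13, an established line from human acute myeloid leukemia, and their RNA was sequenced in 4 groups with 2 libraries per group. The mutant rescue cells were labelled IGF2PB2-mut rescue, the rescue cells IGF2BP2 rescue and the knockdown cells IGF2BP2 knockdown, from titles naming a hairpin. The control cells were labelled WT. IGF2BP2 encodes a protein that binds messenger RNA carrying N6-methyladenosine. Per the labels' protocols, cells were infected with virus in the presence of polybrene, with puromycin added where selection was needed. The sources used here do not give the mutation, the hairpin, or whether control cells carried an empty vector. They do not say whether both libraries of a group came from separate cultures, so the p-values rest on a spread between libraries that may be technical.

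Members of the family act at different steps of the interferon response. IRF3 waits in the cytoplasm and, once phosphorylated by TBK1, switches on interferon beta, and IRF7, itself an interferon-induced gene, drives the larger wave of interferon alpha. Secreted type I interferon acts through its receptor to assemble ISGF3, the complex of IRF9 and STAT2 that turns on antiviral genes. IRF1 and IRF2 compete for the same sites, mostly as activator and repressor, IRF5 serves toll-like receptor signalling, and IRF4 and IRF8 work with partners such as PU.1 in lymphoid and myeloid development.

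Every value below is on the authors' log2 scale, normalized across the 8 libraries. Depth is unknown, since no counts were used here, and values of low genes lie close together, which understates their fold changes. Members above the filter also had larger log2 changes in the authors' deposited table. In rescue over knockdown these were 2.76 against 2.08 here for IRF9, 1.82 against 1.43 for IRF1 and 1.16 against 0.83 for IRF2. Fold changes given below are those of the log2 values used here. A gene was tested if its linear value made up 1 ppm or more of the library in 2 or more of the libraries, and 13028 genes passed. It was called at a Benjamini-Hochberg adjusted p under 0.05 from limma, fitted to all genes and libraries at once. IGF2BP2 itself averaged 10.86 in mutant rescue, 11.25 in rescue, 10.25 in knockdown and 10.92 in control. It was lower in knockdown than in control (log2 change -0.67, adjusted p = 0.0147) and higher in rescue and mutant rescue than in knockdown (adjusted p = 0.00324 and 0.0298). Endogenous and construct transcripts of IGF2BP2 cannot be told apart in these values. The leukemia markers FLT3, CD33, HOXA9, MEIS1 and SPI1 were all tested, while MS4A1 of B cells, CD3E of T cells and HBA1 of erythroid cells stood at 0. The log2 difference between replicates had an SD over genes between 0.148 in knockdown and 0.303 in mutant rescue. In bulk RNA, a change in the share of cells that express a gene and a change per cell cannot be told apart.

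Of the 8 members 7 were tested, each above the filter in all 8 libraries, and IRF4 was below it in all. In knockdown over control IRF5 and IRF9 were higher, 2 of 7, where the calls over the whole table were 5.35% higher and 7.45% lower. In rescue over knockdown 4 of 7 were higher, IRF7, IRF9, IRF1 and IRF2, against 3.22% of all genes called higher and 1.02% lower. In mutant rescue over knockdown 3 of 7 were higher, IRF9, IRF7 and IRF2, against 5.58% higher and 5.72% lower. IRF1 and IRF7 were lower and IRF5 higher in mutant rescue over rescue, against 5.9% lower and 4.61% higher. Set against control, 5 members were higher in rescue (4.91% of all genes) and 4 in mutant rescue (13.9% of all genes). Without knockdown replicate 1 the count in knockdown over control was 0, and without knockdown replicate 2 it was 1. Both rescue groups were compared with the same knockdown libraries, and all 3 other groups with the same control libraries.

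The median log2 change of the 7 tested members was 0.13 in knockdown over control, 0.83 in rescue over knockdown, 0.32 in mutant rescue over knockdown and -0.29 in mutant rescue over rescue. Over all genes tested these medians were 0.012, 0.0045, 0.049 and 0.018.

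**Figure D1:**
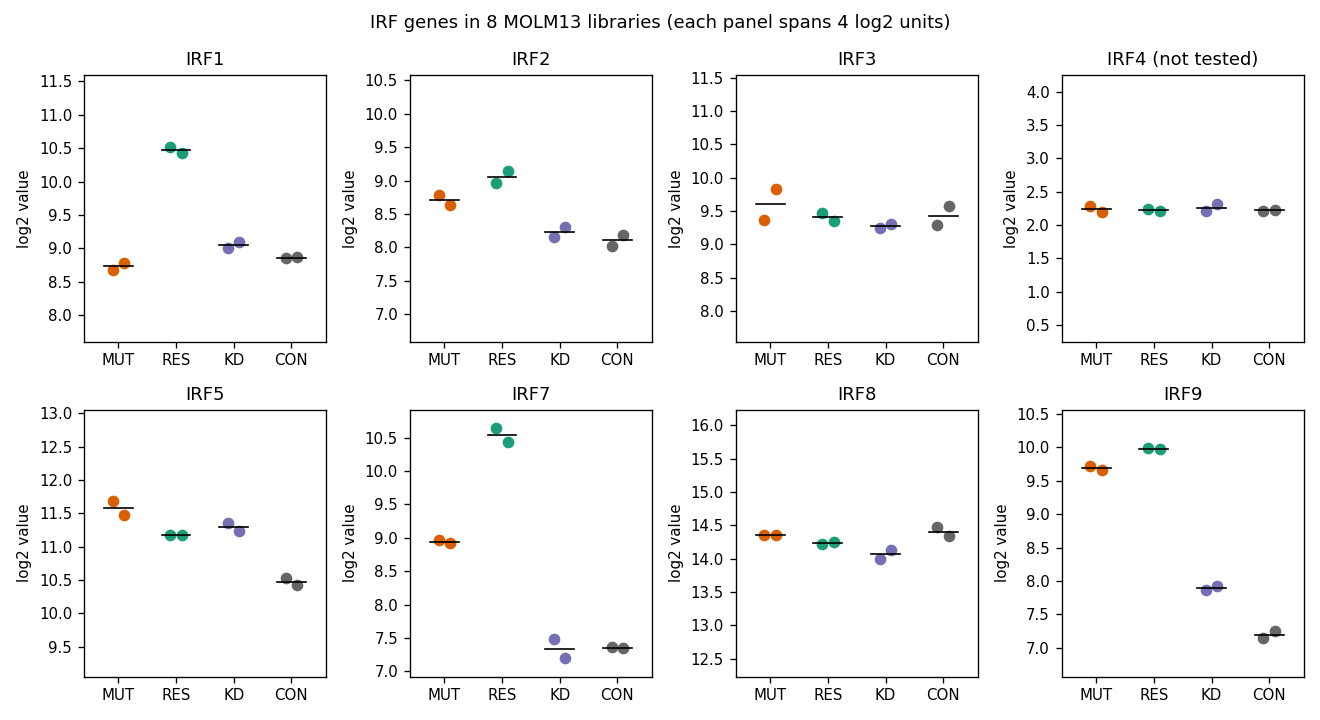
Log2 value of each interferon regulatory factor (vertical axis) in the 4 groups of MOLM13 cells (mutant rescue, rescue, knockdown, control), 1 point per library and a line at the group mean. IRF7 and IRF1 stand highest in rescue, IRF9 is high in both rescue groups, IRF5 is lowest in control, and IRF4 lies between 2.19 and 2.31 throughout.

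IRF7 (chromosome 11, 612553 to 615999, minus strand, GRCh38, protein coding) is the factor that sustains interferon alpha production once a first signal has been given. Its log2 values were 8.96 and 8.92 in mutant rescue, 10.65 and 10.44 in rescue, 7.48 and 7.20 in knockdown and 7.37 and 7.34 in control. Rescue stood above mutant rescue, and mutant rescue above knockdown and control, with no overlap at either step, while the knockdown libraries lay on both sides of the control libraries. IRF7 was 9.21-fold higher in rescue than in knockdown, a log2 change of 3.20 (SE 0.13, adjusted p = 1.40e-06). In mutant rescue it was 3.04-fold higher than in knockdown (log2 change 1.61, SE 0.13, adjusted p = 0.00043). The direct comparison put IRF7 at 3.03-fold lower in mutant rescue than in rescue, with a log2 change of -1.60 and a 95% interval of -1.90 to -1.30 (adjusted p = 0.000343). Between knockdown and control the change was -0.017, with an interval of -0.32 to 0.28 (adjusted p = 0.951). The authors' deposited table gives IRF7 a log2 change of 4.23 in rescue over knockdown and 2.23 in mutant rescue over knockdown.

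IRF3 (chromosome 19, 49659569 to 49665875, minus strand), which acts before IRF7 and is controlled largely by phosphorylation of existing protein, passed no test. It had 9.37 and 9.83 in mutant rescue, 9.47 and 9.34 in rescue, 9.25 and 9.31 in knockdown and 9.29 and 9.57 in control. The mutant rescue libraries differed from each other by more than any group means did, and mutant rescue, rescue and control overlapped. In rescue over knockdown the log2 change was 0.13 with an interval of -0.24 to 0.50. Without mutant rescue replicate 1, IRF3 was called higher in mutant rescue than in knockdown (log2 change 0.55, adjusted p = 0.0318), against 0.32 with both libraries (adjusted p = 0.205). IRF3 overlaps BCL2L12 on the opposite strand over 734 bases, and the sources used here do not state if strand entered the counting.

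IRF5 (chromosome 7, 128937612 to 128950035, plus strand), which acts downstream of toll-like receptors and MYD88 in monocytes and macrophages to induce inflammatory cytokines, was lowest in control. It had 11.68 and 11.47 in mutant rescue, 11.18 and 11.17 in rescue, 11.36 and 11.23 in knockdown and 10.52 and 10.43 in control. All 6 libraries of the other groups stood above both control libraries. IRF5 was 1.77-fold higher in knockdown than in control, a log2 change of 0.82 (SE 0.10, adjusted p = 0.00276). Without knockdown replicate 1 the adjusted p was 0.0532. The change in rescue over knockdown was -0.13, with an interval of -0.36 to 0.11 (adjusted p = 0.56). Rescue and mutant rescue were above control, by 0.70 and 1.10 (adjusted p = 0.00462 and 0.000302). Of 5 markers of plasmacytoid dendritic cells, which make much interferon, 3 were tested (IL3RA, TCF4 and CLEC4C). Over the list they summed to 124 to 125 ppm in mutant rescue, 117 to 124 in rescue, 126 to 130 in knockdown and 85.8 to 97.6 in control. Control was lowest here too. The sum came mostly from IL3RA (log2 9.93 to 10.81 over all libraries) and less from TCF4 (7.06 to 7.99). CLEC4C (3.96 to 4.15), LILRA4 (2.10 to 2.21) and GZMB (-2.09) were low in every library and varied little. The sum is therefore no measure of the whole marker list, and the part of these genes in the difference was not tested.

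Mutant rescue exceeded rescue in IRF5 by 0.40 (SE 0.10, adjusted p = 0.0434), the reverse of IRF1 and IRF7. This call was near the threshold. With 1 library left out it was kept only without mutant rescue replicate 2 (adjusted p = 0.0363). It was lost without control replicates 1 and 2 (adjusted p = 0.0568 and 0.0569), knockdown replicates 1 and 2 (0.0926 and 0.0929), rescue replicates 1 and 2 (0.124 and 0.178) and mutant rescue replicate 1 (0.0838).

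IRF9 (chromosome 14, 24161053 to 24166565, plus strand) is the subunit of ISGF3 that binds the interferon-stimulated response element. It had 9.72 and 9.66 in mutant rescue, 9.99 and 9.97 in rescue, 7.87 and 7.93 in knockdown and 7.14 and 7.25 in control. The groups formed 4 separate levels with no overlap, rescue highest and control lowest. IRF9 was 4.23-fold higher in rescue than in knockdown (log2 change 2.08, SE 0.10, adjusted p = 5.13e-06) and 3.46-fold higher in mutant rescue than in knockdown (log2 change 1.79, SE 0.10, adjusted p = 3.92e-05). Its change in mutant rescue over rescue was -0.29, with an interval of -0.53 to -0.06, and did not pass the test (adjusted p = 0.0981). In knockdown IRF9 was 1.63-fold higher than in control (log2 change 0.70, SE 0.10, adjusted p = 0.00498). That call was lost without knockdown replicate 1 (adjusted p = 0.0643) and without knockdown replicate 2 (adjusted p = 0.078). GENCODE v29 places another protein-coding gene, AL136295.5, on the same strand over all 5513 bases of IRF9. Reads of the pair may not be separable, and their part in the value was not tested.

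IRF1 (chromosome 5, 132481609 to 132490798, minus strand) is induced by interferon gamma and activates genes of antigen presentation. It had 8.67 and 8.78 in mutant rescue, 10.52 and 10.43 in rescue, 9.001 and 9.091 in knockdown and 8.85 and 8.87 in control. Only rescue stood apart by more than 1 log2 unit, and the mutant rescue libraries were the lowest of the 8. IRF1 was 2.70-fold higher in rescue than in knockdown (log2 change 1.43, SE 0.10, adjusted p = 5.21e-05). In mutant rescue the change from knockdown was -0.32, which did not pass the test (adjusted p = 0.0705). IRF1 was 3.36-fold lower in mutant rescue than in rescue (log2 change -1.75, interval -1.98 to -1.52, adjusted p = 4.78e-05). Its change in knockdown over control was 0.19 (adjusted p = 0.255). IRF1 lies within the antisense gene AC116366.3 over its whole length and overlaps C5orf56 on the opposite strand over 7094 bases. These are overlaps of gene spans, introns included, and neither symbol is in the authors' deposited table. Without strand their reads may not be separable, which was not tested.

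IRF1 and IRF9 are shown with the 250 bases before their RefSeq start sites (GRCh38.p14), because both had a gamma-activated site core there, a motif of genes that respond to interferon gamma. Capitals mark the match to TTCNNNGAA, searched on both strands. IRF1 is chr5:132490774-132491023, minus strand, and IRF9 is chr14:24161015-24161264, plus strand, each printed 5′ to 3′ along its gene.
IRF1: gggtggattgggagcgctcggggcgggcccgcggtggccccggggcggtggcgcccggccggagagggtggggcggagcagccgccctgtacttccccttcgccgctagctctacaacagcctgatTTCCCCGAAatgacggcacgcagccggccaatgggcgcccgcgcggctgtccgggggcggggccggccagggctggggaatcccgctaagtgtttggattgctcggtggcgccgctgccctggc
IRF9: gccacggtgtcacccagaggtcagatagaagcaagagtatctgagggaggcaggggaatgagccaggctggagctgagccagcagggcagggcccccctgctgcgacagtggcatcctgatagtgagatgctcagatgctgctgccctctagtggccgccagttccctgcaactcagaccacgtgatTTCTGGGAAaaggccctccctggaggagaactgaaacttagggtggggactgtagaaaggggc
The match in IRF1, TTCCCCGAA, lies 124 to 116 bases before the start, and that in IRF9, TTCTGGGAA, lies 63 to 55 bases before it. This core occurs in 6.57% of 35116 promoter windows of the same length. The core of the interferon-stimulated response element (GAAA, 2 bases of any kind and GAAA again, on both strands), which occurs in 3.02% of them, was not found in either window. For IRF5, the window before its first RefSeq start (chr7:128937677-128937926, plus strand) held neither core.
IRF5: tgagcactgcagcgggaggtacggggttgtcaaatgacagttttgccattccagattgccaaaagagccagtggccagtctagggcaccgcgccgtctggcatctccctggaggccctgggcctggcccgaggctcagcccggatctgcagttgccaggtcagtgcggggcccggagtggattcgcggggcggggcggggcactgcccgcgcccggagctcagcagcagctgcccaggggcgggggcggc
The windows found for IRF4, for IRF8 and for the other starts of IRF5 also held neither. Those of IRF8 (chr16:85902580-85902829 and chr16:85902765-85903014) lie inside the gene, which starts at 85898803. The bases before that start of IRF8 were thus not searched. A match is a stretch of letters, and its absence says only that these letters are not in the window. IRF2, IRF3 and IRF7 had no matched window, and a link between the cores and the changes was not tested.

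IRF2 (chromosome 4, 184387713 to 184474580, minus strand), which represses many sites that IRF1 activates, had 8.79 and 8.63 in mutant rescue, 8.97 and 9.15 in rescue, 8.15 and 8.31 in knockdown and 8.02 and 8.18 in control. Both rescue groups stood above knockdown and control, and the knockdown and control libraries overlapped. IRF2 was 1.77-fold higher in rescue than in knockdown (log2 change 0.83, SE 0.13, adjusted p = 0.00851). This call was lost without knockdown replicate 1, knockdown replicate 2 and rescue replicate 2 (adjusted p = 0.122, 0.0569 and 0.0748). In mutant rescue it was 1.40-fold higher than in knockdown (log2 change 0.48, SE 0.13, adjusted p = 0.0469), a call lost without any 1 of the 8 libraries (adjusted p of 0.0588 to 0.246). Over control the changes were 0.95 in rescue (adjusted p = 0.00282) and 0.61 in mutant rescue (adjusted p = 0.0114), the second lost without control replicate 1 (adjusted p = 0.0739). Its change in mutant rescue over rescue was -0.35, with an interval of -0.64 to -0.05 (adjusted p = 0.11).

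IRF8 (chromosome 16, 85898803 to 85922609, plus strand) directs progenitors towards monocytes and dendritic cells with PU.1, and mice without it develop a myeloproliferative disease. Its values were 14.35 and 14.35 in mutant rescue, 14.22 and 14.25 in rescue, 13.99 and 14.13 in knockdown and 14.47 and 14.33 in control. Both knockdown libraries were below the other 6. IRF8 passed no test. The change in knockdown over control was -0.34 (interval -0.58 to -0.11, adjusted p = 0.0642), and it was called lower without mutant rescue replicate 1 (adjusted p = 0.0429) or mutant rescue replicate 2 (adjusted p = 0.0422). In the authors' deposited table the log2 change of IRF8 in knockdown over control is -0.45 (adjusted p = 0.00482).

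IRF4 (chromosome 6, 391739 to 411447, plus strand), the factor of plasma cells and activated lymphocytes, lay between 2.19 and 2.31 in the 8 libraries. The filter of 1 ppm corresponds to a log2 value of 3.76 to 4.01, so IRF4 was not tested in the fit reported. Its libraries overlapped in every comparison, at a level where values lie close together. Without a filter, limma gave it adjusted p-values of 0.657 to 0.998. The plasma cell markers summed to at most 1.16 ppm of the linear total in any library.

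**Figure D2:**
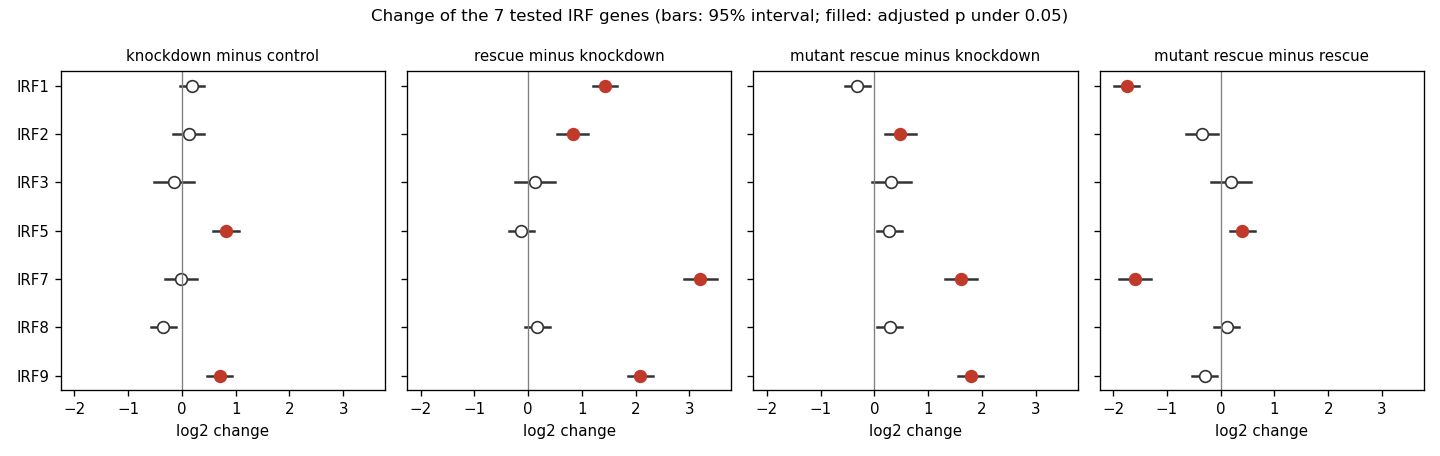
Log2 change of the 7 tested interferon regulatory factors (horizontal axis) in 4 comparisons, with the point at the limma estimate, filled where the adjusted p is under 0.05, and the bar at its 95% interval. IRF7 lies at 3.20 in rescue over knockdown and at 1.61 in mutant rescue over knockdown, while IRF1 lies at 1.43 and -0.32 in the same pair of comparisons.

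The genes that IRF3, IRF5 and IRF7 switch on include the interferons. Of 20 type I and III interferon genes listed, IFNA2 alone was above the filter, and only through the rescue libraries, so its values are a description. IFNA2 had 3.49 and 3.58 in mutant rescue, 4.52 and 4.76 in rescue, 3.49 and 3.49 in knockdown and 3.48 and 3.49 in control. IFNB1, below the filter, had 3.07 and 3.01 in mutant rescue, 3.50 and 3.67 in rescue, 3.03 and 2.99 in knockdown and 2.99 and 2.99 in control. The lambda interferon IFNL1, also below it, had 2.95 and 2.93 in mutant rescue, 3.53 and 3.52 in rescue, 2.97 and 2.95 in knockdown and 2.92 and 2.93 in control. In these 3 genes, chosen as stated, both rescue libraries were above the other 6, and so they were in IFNA1, IFNA8 and IFNA13. The same held for IFNA10 and IFNE, whose values were below 0 in every library. IFNW1 did not show this, with 2.06 and 2.14 in rescue against 2.16 and 2.09 in knockdown, nor did IFNA7 and IFNA14. The share of all genes with this pattern was not counted. Others of the list, IFNA4 among them, stood at 0 in every library. The interferon alpha genes are near-identical copies, so reads given to IFNA2 are uncertain. IFNB1, IFNL1 and the other genes named below the filter were chosen after their values were seen.

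Of 20 sensors, adaptors and kinases upstream of IRF3, IRF5 and IRF7, 19 were tested. In rescue over knockdown 4 rose, the RNA sensors DDX58 (3.36), IFIH1 (2.96) and DHX58 (2.93) and the adaptor MYD88 (1.31). DDX58 had 9.26 and 9.02 in mutant rescue, 11.44 and 11.55 in rescue, 8.02 and 8.25 in knockdown and 7.95 and 7.92 in control. It thus followed the order of IRF7, rescue over mutant rescue over knockdown, without overlap. The 3 sensors also rose in mutant rescue over knockdown, by 1.01, 1.31 and 1.03 in the order given. That count was 0 without knockdown replicate 1, 1 without knockdown replicate 2, and 5 higher and 1 lower without mutant rescue replicate 1. Of the 19, 5 fell in mutant rescue over rescue, with DDX58 at -2.36, DHX58 at -1.90, IFIH1 at -1.66 and MYD88 at -0.97. The count was 3 lower without rescue replicate 1 or 2, and 1 gene was higher without mutant rescue replicate 1. In knockdown over control limma called 0 of 19, with 3 at an unadjusted p under 0.05, and the authors' deposited table called 1. Without mutant rescue replicate 1 or 2 limma called 2 higher. The median log2 change was 0.23 in rescue over knockdown, 0.069 in mutant rescue over knockdown and -0.23 in mutant rescue over rescue.

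Of 11 receptor and transducer genes that feed IRF9, 10 were tested. In rescue over knockdown 2 rose, and in mutant rescue over knockdown also 2, STAT2 among them in both. STAT2, which IRF9 binds directly in ISGF3, had 11.67 and 11.80 in mutant rescue, 12.37 and 12.42 in rescue, 11.02 and 11.03 in knockdown and 10.10 and 10.41 in control. The groups did not overlap and stood in the same order as those of IRF9. STAT2 changed by 1.37 in rescue over knockdown (adjusted p = 0.000178) and by 0.72 in mutant rescue over knockdown (adjusted p = 0.0122). The count in mutant rescue over knockdown was 1 without knockdown replicate 1 or 2. In the comparison of mutant rescue with rescue 2 fell, with STAT2 at -0.66, and IL10RB (0.56), a subunit of the lambda interferon receptor, rose. Without rescue replicate 2 these counts were 1 lower and 0 higher. In knockdown over control IL10RB (0.68), STAT2 (0.77) and IFNAR1 (0.43) rose. This count of 3 was 0 without knockdown replicate 1, 1 without knockdown replicate 2 and 5 without mutant rescue replicate 1 or 2.

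Of 12 corepressors and negative regulators of the factors 11 were tested, and 5 rose in rescue over knockdown, among them USP18 (4.89), ISG15 (3.19), RBCK1 (1.87) and TRIM21 (1.06). USP18, which blocks the type I interferon receptor, had 9.90 and 9.75 in mutant rescue, 12.31 and 12.27 in rescue, 7.42 and 7.38 in knockdown and 7.39 and 7.55 in control. TRIM21 and RBCK1 are ubiquitin ligases reported to mark IRF3 for degradation, and ISG15 is a ubiquitin-like protein. These 4 genes also rose in mutant rescue over knockdown, by 2.42, 1.41, 0.90 and 0.55. This count of 4 was 2 without knockdown replicate 1 or 2 and 7 without mutant rescue replicate 1. Of the regulators 5 fell in mutant rescue over rescue, with USP18 at -2.47, and without mutant rescue replicate 1 another 3 were higher. TRIM21 (0.51) was called in knockdown over control, and was lost without control replicate 1, knockdown replicate 1 or knockdown replicate 2, which left 0 called.

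The 9 genes for DNA-binding partners of IRF4 and IRF8 were all tested. BATF2, a leucine zipper partner, rose in rescue over knockdown (1.30, adjusted p = 0.000298), as 1 of 9, against 3.22% of all genes. It had 4.66 and 4.30 in mutant rescue, 5.46 and 5.58 in rescue, 4.29 and 4.15 in knockdown and 4.12 and 4.14 in control. BATF2 (-1.05) and SPIB (-0.63), an ETS factor close to PU.1, fell in mutant rescue over rescue, a count of 2 that was 1 without rescue replicate 2 or mutant rescue replicate 2. IKZF3 (-0.70) and SPIB (-0.64) fell in mutant rescue over knockdown, a count that was 0 without knockdown replicate 1 or 2 and 1 without mutant rescue replicate 2. In both comparisons 1 gene was called higher without mutant rescue replicate 1. Limma called 0 of 9 in knockdown over control, with 1 at an unadjusted p under 0.05, and the authors' deposited table called 0.

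Targets of the ISGF3 complex, to which IRF9 gives its DNA contact, had the largest median changes of the 3 target lists described here in rescue and in mutant rescue over knockdown. All 28 listed genes were tested and all 28 rose in both rescue groups over knockdown, with a median log2 change of 4.14 in rescue and 2.40 in mutant rescue. All 28 fell in mutant rescue over rescue, with a median of -1.77. IFIT3, the partner that stabilises the RNA-binding protein IFIT1, had 12.30 and 12.18 in mutant rescue, 14.68 and 14.99 in rescue, 8.22 and 8.24 in knockdown and 7.49 and 7.69 in control. The mean level of the list was 9.87 and 9.81 in mutant rescue, 11.61 and 11.73 in rescue, 7.38 and 7.45 in knockdown and 7.12 and 7.11 in control. For the same pair of groups the change of IRF9 was -0.29 and did not pass the test, and that of IRF7 was -1.60. In knockdown over control 9 rose, those with the smallest adjusted p being OAS1 (1.02), OAS2 (0.87), RSAD2 (0.60) and IFIT3 (0.64), and CXCL10 (-0.72) fell. The count of 9 was 3 without control replicate 1, 4 without control replicate 2 and 2 without knockdown replicate 1 or 2, and CXCL10 was not called in any of these fits.

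Of 22 genes listed as IRF1 targets in antigen presentation and inflammation, 20 were tested. One of them, GBP1, was above the filter only through the rescue libraries and had to differ, so it is left out of the counts that follow. In rescue over knockdown 10 of 19 rose, with a median log2 change of 0.80, among them the viral tether BST2 (2.29), the death ligand TNFSF10 (2.43) and the immunoproteasome subunit PSMB9 (1.95). The peptide transporter TAP1 had 10.16 and 9.80 in mutant rescue, 11.69 and 11.54 in rescue, 9.43 and 9.21 in knockdown and 8.91 and 9.15 in control. In mutant rescue over knockdown, where IRF1 passed no test, 7 of these genes rose, with BST2 at 1.32, TNFSF10 at 0.90, PSMB9 at 0.87 and PSMB8 at 0.69. That count was 1 without knockdown replicate 1 or 2, and 1 gene was lower without mutant rescue replicate 1. In mutant rescue over rescue 9 of 19 fell, with a median of -0.55, TAP1 at -1.63 and TNFSF10 at -1.54. In that comparison 1 gene was called higher without mutant rescue replicate 1. NLRC5 (0.61), GBP2 (0.74) and TNFSF10 (0.47) rose in knockdown over control. This count of 3 was 1 without control replicate 1, 0 without control replicate 2 or knockdown replicate 1 or 2, and 5 without mutant rescue replicate 1 or 2, and 1 gene was lower without control replicate 1 or mutant rescue replicate 1 or 2.

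Of 20 genes listed as IRF8 targets in monocytes and dendritic cells, 17 were tested. In knockdown over control, where IRF8 itself did not pass the test, 8 of 17 rose, against 5.35% of all genes. Those with the smallest adjusted p were CYBB (1.99), the catalytic subunit of the phagocyte oxidase, LGALS3 (1.08), CD68 (0.85) and the protease gene CTSS (0.91). CYBB had 8.98 and 9.31 in mutant rescue, 8.68 and 8.92 in rescue, 9.18 and 9.13 in knockdown and 7.07 and 7.27 in control. The 6 libraries outside control were thus above both control libraries in CYBB, as they were in IRF5. The count of 8 was 4 without knockdown replicate 2, and 1 gene was lower without mutant rescue replicate 1 or 2. The median of the list was 0.37 in knockdown over control. The 1 gene of 17 called higher in rescue over knockdown, named next, is near the 3.22% of all genes. In rescue over knockdown PML (2.15) alone rose, with a list median of 0.0061, and 1 gene was lower without mutant rescue replicate 1 or 2. LGALS3 (0.75), PML (0.74) and CST3 (0.53) rose in mutant rescue over knockdown, a count of 3 that was 0 without knockdown replicate 1 or 2. LGALS3 (1.16), CST3 (0.77) and NCF1 (0.47) rose and PML (-1.40) fell in mutant rescue over rescue. The 3 higher were 1 without rescue replicate 2 and 5 without mutant rescue replicate 1.

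Over the whole table, 4.91% of genes were called higher in rescue over control and 13.9% in mutant rescue over control. In mutant rescue over control 3241 of 13028 genes were called in either direction. Set against control, all 28 ISGF3 targets rose in rescue and in mutant rescue, with medians of 4.55 and 2.56. Of the IRF1 targets without GBP1, 15 rose in rescue and 13 in mutant rescue, which became 8 without control replicate 2. Of the IRF8 targets, 8 rose in rescue (5 without control replicate 2 or rescue replicate 1) and 10 in mutant rescue. Among 19 tested sensors, adaptors and kinases 6 rose in rescue and 3 in mutant rescue. In mutant rescue these 3 of 19, and the 1 of 9 partners of IRF4 and IRF8 below, were near the share over the whole table. The count of 3 was 5 higher and 1 lower without mutant rescue replicate 1, and 6 higher without mutant rescue replicate 2. Of the receptor and transducer genes 3 rose in rescue and 4 in mutant rescue. Of the corepressors and negative regulators 5 rose in each, and 9 rose in mutant rescue without mutant rescue replicate 1. Among the partners of IRF4 and IRF8, 1 rose in rescue, and in mutant rescue 1 rose (0 without control replicate 1) and 2 fell (1 with any 1 of the 8 libraries left out).

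**Figure D3:**
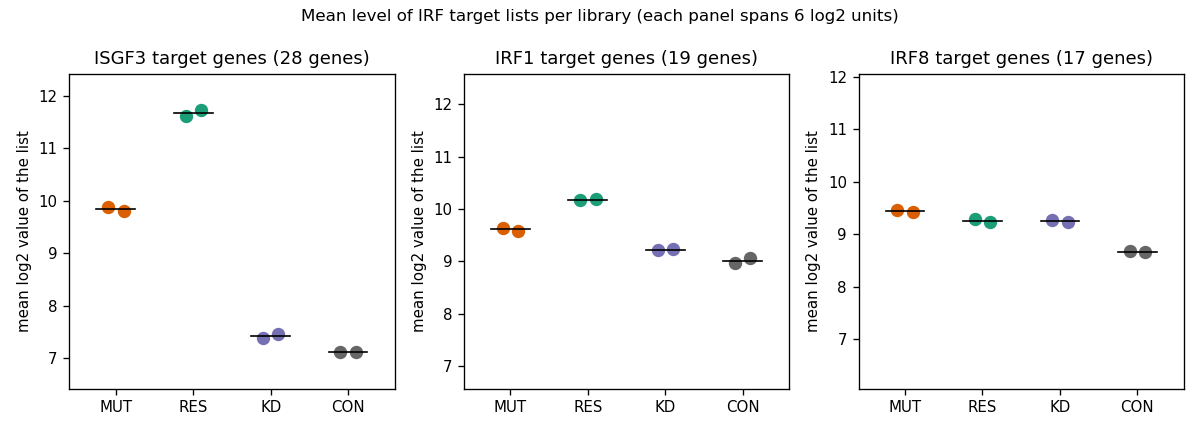
Mean log2 value per library of the target lists of ISGF3 (28 genes), IRF1 (19, without GBP1) and IRF8 (17) in mutant rescue (MUT), rescue (RES), knockdown (KD) and control (CON), with a line at each group mean and every vertical axis spanning 6 log2 units. The ISGF3 list reaches 11.73 in rescue, against 7.11 in control, and the IRF8 list stands at 9.23 to 9.47 outside control, against 8.67 and 8.65 in control.

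Other genes followed single members closely across the 8 libraries. For each member called at least once, the 3 tested genes with the highest Pearson correlation of log2 values are given, as a description over libraries that share their groups. IRF7 was nearest to USP18 (0.998), IFITM1 (0.996) and IFITM3 (0.996). IRF9 was nearest to SAMD9L (0.989), RNF114 (0.989) and OAS1 (0.988). IRF2 was nearest to C4orf33 (0.996), BST2 (0.986) and CHD9 (0.985). IRF1 was nearest to ENPP2 (0.984), SLAMF7 (0.981) and PAX5 (0.980), and IRF5 to GLB1 (0.998), ARHGEF10L (0.994) and TNIP1 (0.992). Between members, the correlation over the same 8 libraries was 0.952 for IRF2 with IRF7, 0.950 for IRF2 with IRF9 and 0.914 for IRF7 with IRF9, while IRF1 with IRF5 stood at 0.028.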

How the data were processed

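MOLM13 libraries (4 groups of 2) were grouped by their titles. Per the file headers, the table was written by HOMER's getDiffExpression.pl, and GRCh38, HOMER, kallisto and Trim Galore are named in the submitters' processing notes without role or version. The deposited values per library are on a log2 scale, as normalized by the authors over all 8 libraries. The authors' log2 changes and p-values for each pair of groups are deposited beside them, and the sources used here do not give their model. Each of their columns is the second-named group over the first, as the library means show.

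Limma (3.58.1, R 4.3.3) was run on the deposited log2 values with no pseudocount, as a group-means model with 4 residual degrees of freedom, empirical Bayes moderation and a mean trend. The 13028 genes kept set the Benjamini-Hochberg adjustment in each of 6 comparisons. Of the genes listed, 10937 are at 0 in every library, and 1 row without a symbol was left out. Precision is that of 2 libraries per group, and intervals are 95%, not adjusted.

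The alternatives were no filter or a filter of 5 ppm, no trend, a fit of only both groups compared, quantile normalization, centring on the median, 16 added on the linear scale, the authors' deposited table, each library left out, and a replicate block. Members, lists and tests were chosen with earlier results of these data known, among them the rise of interferon-stimulated genes in rescue. Per list up to 4 genes were named, those called with the smallest adjusted p, and others with values by library to show their pattern. Positions are from GENCODE v29 (GRCh38) and promoter windows from RefSeq (GRCh38.p14), in which 5 of 8 members were matched, leaving IRF2, IRF3 and IRF7. No set test was run. Some genes of the lists are not reported here by name.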

Additional observations from a re-analysis of the deposited data

How the results depend on the processing

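Of the members' changes under all alternatives, 667 kept their direction and their side of the threshold, 34 lost the call, 5 gained it and 8 changed sign. The members called in knockdown over control were 2, and 0 without knockdown replicate 1 and 1 without knockdown replicate 2, a range of 0 to 3 with 1 library left out. In the other comparisons these ranges were 3 to 4 (rescue over knockdown), 2 to 3 (mutant rescue over knockdown), 2 to 3 (mutant rescue over rescue), 5 to 5 (rescue over control) and 3 to 4 (mutant rescue over control).

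IRF2 in mutant rescue over knockdown was not called without a filter (adjusted p = 0.0563), in a fit of both groups alone (0.0848), after quantile normalization (0.0942), centring (0.0808) or adding 16 (0.0514), or in the authors' deposited table (0.107). IRF5 in mutant rescue over rescue was not called without a filter (0.0616), with no trend (0.0514), in a fit of both groups alone (0.146), after quantile normalization (0.0652) or centring (0.0654), or in the authors' deposited table (0.114). IRF8 in knockdown over control was called without a filter (0.0352). The cause was not tested.

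The sign changed only for changes that passed no test. After quantile normalization IRF8 stood at -0.023 in mutant rescue over knockdown and -0.059 in mutant rescue over rescue. With 1 library left out, IRF8 ranged from -0.12 to 0.015 in mutant rescue over control and IRF7 from -0.16 to 0.13 in knockdown over control. In the same fits IRF3 ranged from -0.16 to 0.11 in rescue over control, -0.043 to 0.43 in mutant rescue over rescue and -0.067 to 0.40 in mutant rescue over control.

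Counts of genes called over the whole table moved more. Leaving out each library in turn gave between 179 and 2359 in knockdown over control (1667 in the fit reported), 176 and 864 in rescue over knockdown (553), 79 and 2800 in mutant rescue over knockdown (1472), 241 and 2871 in mutant rescue over rescue (1370), 361 and 1422 in rescue over control (936) and 1440 and 3952 in mutant rescue over control (3241). Fits of both groups alone called 2620, 1246, 279 and 192 in the first 4 of these and 1793 in mutant rescue over control. Quantile normalization called 717 in mutant rescue over knockdown, and the authors' deposited table called 2615 in knockdown over control and 1318 in rescue over knockdown. With the replicate number as a block, the members called were 2, 4, 3, 3, 5 and 4, as without it, and no member's call changed (IRF5 in mutant rescue over rescue, adjusted p = 0.0297). Same-numbered libraries deviated together with correlations of -0.021 to 0.414, and the labels do not pair them. Without a filter, IRF4 had adjusted p-values of 0.657 to 0.998. Without counts, depth is unknown, and changes of low genes are understated. For IRF1, IRF2, IRF7 and IRF9 in rescue over knockdown, the authors' deposited log2 changes were also larger than those reported here.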

Other observations

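Of the genes of the primary response to interferon gamma, in which IRF1 acts, 12 were tested. Leaving out GBP1, which passed the filter only through rescue, 7 of 11 rose in rescue over knockdown, with a median log2 change of 0.67, among them the chemokine CXCL10 (5.73) and WARS (1.12). With GBP1 the count was 8, and 5 without knockdown replicate 1. CXCL10 had 8.38 and 8.25 in mutant rescue, 11.13 and 11.61 in rescue, 5.72 and 5.56 in knockdown and 6.20 and 6.52 in control. It was lowest in knockdown and highest in rescue. In mutant rescue over knockdown 2 rose, with CXCL10 at 2.67, and GBP4 (-0.71) fell, a call lost without knockdown replicate 1, knockdown replicate 2 or mutant rescue replicate 2, and 2 genes were lower without mutant rescue replicate 1. Leaving out GBP1, 7 of 11 fell in mutant rescue over rescue, with a median of -0.58, led by CXCL10 at -3.06. FCGR1A (0.54) and GBP2 (0.74) rose and WARS (-0.54) and CXCL10 (-0.72) fell in knockdown over control. Of these 4 calls 0 were left without knockdown replicate 1 or 2, 1 lower without control replicate 1, 1 higher without control replicate 2, and 1 higher beside both lower without rescue replicate 1 or 2.

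The 7 genes of the plasma cell program around IRF4 were all tested. MYC, a growth factor-responsive transcription factor and the highest of the 7, had 12.59 and 12.20 in mutant rescue, 12.36 and 12.12 in rescue, 11.72 and 11.76 in knockdown and 11.98 and 11.89 in control. It rose in mutant rescue over knockdown (0.65, adjusted p = 0.029), a call lost without knockdown replicate 1 or 2. PAX5, a B cell factor, had 4.66 and 4.64 in mutant rescue, 5.30 and 5.39 in rescue, 4.71 and 4.75 in knockdown and 4.79 and 4.75 in control, and rose in rescue over knockdown (0.62, adjusted p = 0.00206). Without mutant rescue replicate 1 or 2, the count there was 2. PAX5 (-0.70) fell in mutant rescue over rescue. Without mutant rescue replicate 2, 1 gene was higher in mutant rescue over rescue. Limma called 0 of 7 in knockdown over control (1 higher without mutant rescue replicate 1 or 2), with 1 at an unadjusted p under 0.05, and the authors' deposited table called 1 lower.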
